A study of Mus musculus with 8 samples.

Results

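The mitochondrial ribosomal protein genes were described in cochlear RNA of WT and Opa1+/- mice. They are the genes whose symbol begins with *Mrpl* or *Mrps* followed by a digit, without entries marked -ps, which are pseudogene symbols. This gave 77 genes out of 47628 entries that name a gene, 48 of the large subunit by symbol (*Mrpl*) and 29 of the small subunit by symbol (*Mrps*). All 77 passed the count minimum, a mean normalized count over 10, and entered the test. The cochleae came from 4 WT mice (named WT_4, WT_5, WT_6 and WT_8) and 4 Opa1+/- littermates (Het_2, Het_7, Het_484 and Het_491), untreated and 21 days of age. The Opa1+/- mice are heterozygous for the knock-in deletion delTTAG in *Opa1*, which codes for the dynamin-like GTPase of the mitochondrial inner membrane, in a mixed genetic background. The WT mice carry no such allele. The study used both sexes, and the labels do not give the sex of each mouse.

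Mitochondria translate the few proteins of their own genome on ribosomes that differ from those of the cytosol. The RNA of these ribosomes, the 12S rRNA (*mt-Rnr1*) of the small subunit and the 16S rRNA (*mt-Rnr2*) of the large subunit, is made in the organelle. Every protein of both subunits is encoded in the nucleus, made in the cytosol and imported. Inherited defects of several of these proteins, and variants of the 12S rRNA, are known causes of hearing loss.

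Counts on named genes ranged from 15978051 to 20828030 per mouse, of which the 77 genes took between 0.199% and 0.213%. *Opa1* was lower in the Opa1+/- mice, 65.6 ± 4.42 against 119.7 ± 6.09 CPM (counts scaled to a common library total, SD, n = 4 each), with no overlap between the groups (exact two-sided permutation test, p = 0.0286, the smallest this design can give). All 8 hair cell and all 6 spiral ganglion neuron markers were counted in every library, as were markers of blood and muscle. The 5 erythroid markers summed to between 7709 and 21260 CPM in WT and between 14920 and 24920 CPM in Opa1+/- mice, and the 5 skeletal muscle markers to between 175.8 and 1669 CPM and between 12.4 and 819.5 CPM, respectively. In such bulk samples a smaller share of one cell type and less RNA per cell cannot be told apart. The library numbers in the labels run from 1 to 4 in WT and from 5 to 8 in Opa1+/- mice, so library order and genotype cannot be told apart either.

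In cochlea at this age, every gene of the mitochondrial ribosome on the list was counted in all 8 libraries. Mean levels over the 8 mice ran from 7.52 to 86.7 CPM with a median of 24.6 CPM, and single counts ran from 117 to 1794 reads per gene and mouse. To compare genes with one another, levels were divided by the annotated exon length, the union of all exons in the GENCODE vM21 annotation of GRCm38. On this scale the median was 11.7 CPM per kb for the large subunit and 8.43 CPM per kb for the small subunit, and the highest and lowest of the 77 genes differed 24.5-fold.

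*Mrps21* (ENSMUSG00000054312.6, chromosome 3 from 95862634 to 95871519), the relative of bacterial protein S21, had the highest mean level per length, 65.0 CPM per kb. In the small subunit list *Mrps6* followed with 56.5 CPM per kb and *Mrps36* with 29.01 CPM per kb. *Mrps6* codes for the relative of bacterial S6, and its exons share up to 305 bases with a gene on the same strand, among them *Slc5a3*, the sodium-coupled myo-inositol transporter, so its reads may in part belong to another gene. *Mrps36* carries a ribosomal symbol, but its protein is known as a component of the 2-oxoglutarate dehydrogenase complex. The lowest mean levels of the small subunit list over both genotypes were those of *Mrps30*, 2.78 CPM per kb, *Mrps35*, 2.85 CPM per kb, and *Mrps10*, 3.18 CPM per kb. In WT mice alone *Mrps35* was below *Mrps30*, at 2.63 ± 0.0855 and 2.78 ± 0.112 CPM per kb (SD, n = 4).

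In the large subunit, *Mrpl41*, a protein without a bacterial relative, reached 35.7 CPM per kb. *Mrpl12*, which forms the flexible stalk that receives translation factors, and *Mrpl54*, which sits beside that stalk, had 28.8 and 28.5 CPM per kb. In WT mice the last pair stood at 26.9 ± 2.31 and 26.8 ± 1.46 CPM per kb (SD, n = 4), so that their order was within the spread over mice. *Mrpl32*, whose protein is cut by an inner membrane protease before it joins the ribosome, had the lowest mean over both genotypes, 2.65 CPM per kb, followed by *Mrpl1* with 2.73 and *Mrpl33* with 2.88 CPM per kb. In WT mice alone *Mrpl15*, a relative of bacterial L15, was lowest with 2.73 ± 0.272 CPM per kb, beside 2.77 ± 0.393 for *Mrpl32*, 2.86 ± 0.211 for *Mrpl33* and 2.91 ± 0.173 for *Mrpl1* (SD, n = 4), so these 4 were not ordered beyond the spread. The lower ranks depended on the length used. Per kb of the longest transcript *Mrpl33* had 7.70 and *Mrps35* 5.34 CPM, and the genes with the lowest values were *Mrpl1*, 3.30 CPM per kb, in the large and *Mrps25*, 4.22 CPM per kb, in the small subunit.

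**Figure D1:**
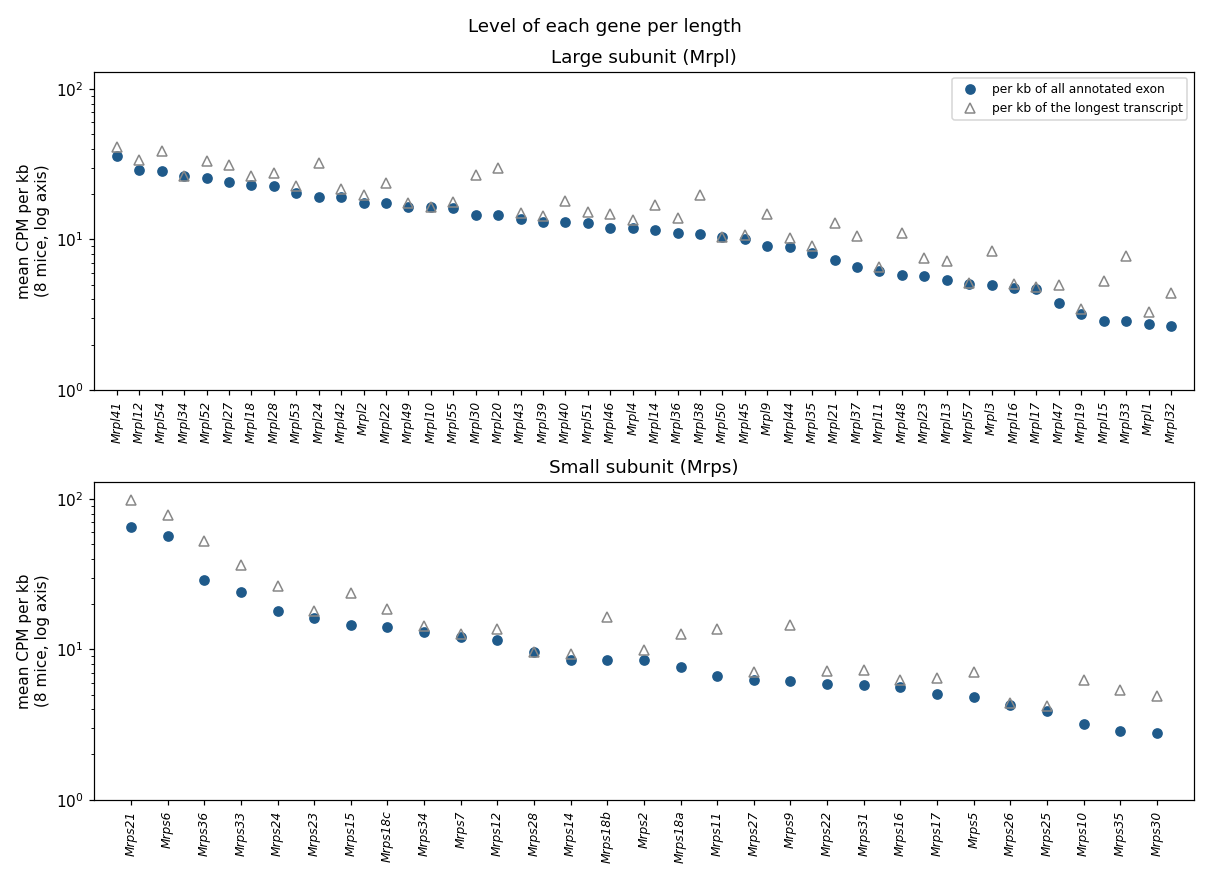
Mean level of each gene over 8 mice in CPM per kb on a log axis, large subunit above and small subunit below, ordered by the level per kb of all annotated exons (filled circles), with the level per kb of the longest transcript as open triangles. *Mrps21* and *Mrps6* stand above all other members, and the triangles lie well above the circles for genes such as *Mrpl33* and *Mrps36*.

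The genes share features of position that were not used to choose them. They lie on 17 chromosomes. Of the 77, 33 (42.9%) have a start site within 1000 bases of the start of a protein-coding gene on the opposite strand, compared with 10.9% of all 21951 protein-coding genes in the annotation. The share was 50% (24 of 48) for the large and 31.0% (9 of 29) for the small subunit. Some partners are mitochondrial genes themselves. *Mrpl46* and *Mrps11* face each other on chromosome 7, *Mrps12* faces *Sars2* (the mitochondrial seryl-tRNA synthetase), *Mrpl36* faces *Ndufs6* (a subunit of complex I) and *Mrpl43* faces *Twnk* (the mitochondrial DNA helicase). These partners were named after the list was seen. Exons of 32 of the 77 genes overlap those of another gene, on the same strand in 8 and on the opposite strand in 27, and for these the counts may include reads of the neighbour.

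Promoter windows from RefSeq (GRCm38.p6, from 250 bases before to 50 bases after a start) were found for 68 of the 77 genes. Letters that 3 kinds of factor known to act on genes of mitochondria can bind were searched on both strands. They were GCGCA followed by its reverse complement for NRF1, CCGGAAG for the ETS factors, which include GABP, and AAGATGGC for YY1. The YY1 letters were present in 12 of 68 genes (17.6%), against 3.57% of 17492 protein-coding genes with windows of the same length. The ETS letters were present in 25 genes (36.8% against 12.9%) and the NRF1 letters in 3 genes (4.41% against 1.47%). The GC box GGGCGG was present in 50% of the genes and 49.2% of protein-coding genes, and TATAAA in 7.35% and 14.8%. In 8 of the 12 genes the YY1 letters lay after the start, in the direction of reading. The YY1 letters contain ATG, and whether such matches hold the start codon of the protein was not examined. The 17.6% includes these 8 genes. A match of letters is a description and does not show that a factor binds there.

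The sites are given with the matched letters in capitals, 5′ to 3′ in the direction of the gene, to give the 3 NRF1 matches and examples of the other 2 motifs in genes described in the text. The NRF1 matches lay at chr13:14613105-14613134 (minus strand), chr16:84735350-84735379 (minus strand) and chr3:94443298-94443327 (plus strand).
*Mrpl32*: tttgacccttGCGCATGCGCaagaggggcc
*Mrpl39*: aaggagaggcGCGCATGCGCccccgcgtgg
*Mrpl9*: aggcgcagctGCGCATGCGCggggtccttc

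For YY1, *Mrps24* (chr11:5707652-5707676, minus strand), *Mrps7* (chr11:115604147-115604176, plus strand) and *Mrps18a* (chr17:46111004-46111033, plus strand) are shown. In all 3 the match lies after the annotated start.
*Mrps24*: cgcgccggcccAAGATGGCgtggtc
*Mrps7*: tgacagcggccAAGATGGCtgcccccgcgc
*Mrps18a*: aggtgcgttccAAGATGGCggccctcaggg

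For the ETS letters, *Mrpl52* (chr14:54426851-54426879, plus strand), *Mrpl53* (chr6:83109038-83109066, plus strand) and *Mrps16* (chr14:20393547-20393575, minus strand) are shown. In *Mrpl52* and *Mrps16* the match is on the other strand and reads CTTCCGG.
*Mrpl52*: caagatgtcggCTTCCGGttttcccggca
*Mrpl53*: ccgcggagccgCCGGAAGcggtccgttcc
*Mrps16*: ttgggggcgctCTTCCGGgcttcaggctc

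The comparison of Opa1+/- with WT mice asked whether a lowered *Opa1* level goes along with other RNA of the mitochondrial ribosome. None of the 77 genes passed edgeR's quasi-likelihood test at an adjusted p under 0.05 over all 19366 genes tested, where 0.0258% of genes were called. The lowest adjusted p of a member was 0.722 from edgeR and 0.497 from DESeq2, which called 0 of the members and 0.119% of all genes. Without adjustment, 5 members had a p under 0.05 and a higher level in Opa1+/- mice (6.49%, against 3.51% of all genes tested), and 0 a lower level (against 3.22%), which became 1, *Mrpl1*, with scaling by total counts or without Het_2. DESeq2 gave 3 higher members and 0 lower, with a background of 2.88% in each direction. All 77 members are protein-coding. Of the 15023 protein-coding genes tested, edgeR gave 328 higher (2.18%) and 558 lower at an unadjusted p under 0.05. Differences were small throughout, with log2 fold changes (Opa1+/- over WT) between -0.19 and 0.31 and standard errors (SE) between 0.0495 and 0.157.

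Most of the small differences had the same sign. The fitted log2 fold change was above 0 in 64 of 77 genes, which is 83.1%. This compares with 50.1% of all genes tested and 45.6% of the protein-coding genes tested. It was above 0 in 42 of 48 large subunit and 22 of 29 small subunit genes. The median log2 fold change was 0.094 for the large subunit (6.77% more RNA) and 0.047 for the small subunit (3.35% more). It was 3.95e-04 over all genes tested and -0.014 over the protein-coding genes tested. Only 4 of the 77 genes exceeded 0.2, 3 of them large subunit genes. Without Het_491 the medians were 0.064 for the large and 0.018 for the small subunit. With an adjustment for length and GC content, given below, 53 of the 77 genes were above 0.

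**Figure D2:**
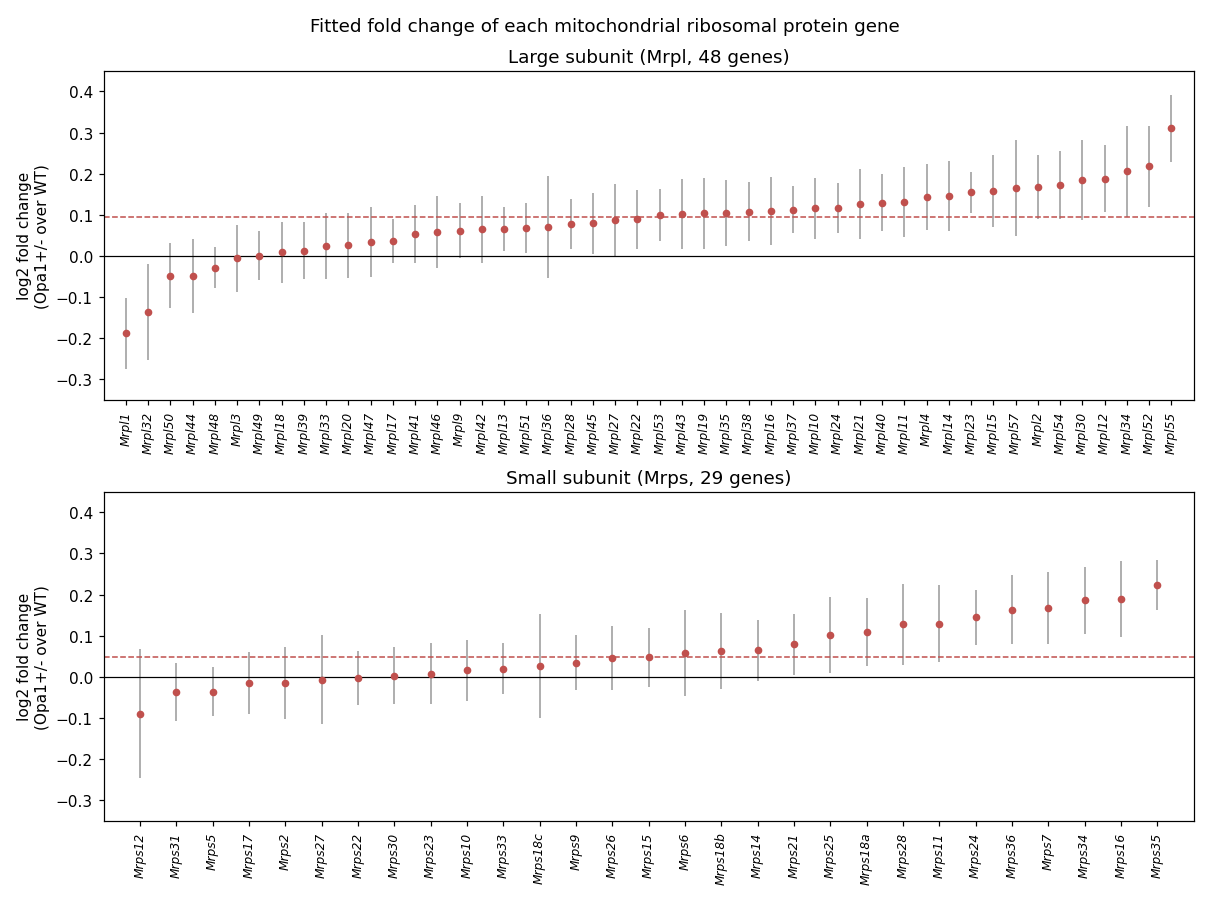
Fitted log2 fold change (Opa1+/- over WT, 4 mice each) of the 48 large and 29 small subunit genes, each sorted by value, with the standard error from edgeR as bars and the median of the subunit as a dashed line. Values run from -0.19 for *Mrpl1* to 0.31 for *Mrpl55*, and 64 of the 77 points lie above 0.

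The gene with the lowest unadjusted p was *Mrpl55* (ENSMUSG00000036860.14, chromosome 11 from 59202486 to 59206134), the relative of bacterial L31 in the central protuberance of the large subunit. It had 14.4, 16.3, 15.3 and 13.2 CPM in WT_4, WT_5, WT_6 and WT_8, and 18.5, 17.6, 18.4 and 18.9 CPM in Het_2, Het_7, Het_484 and Het_491. All 4 Opa1+/- values were above all 4 WT values. The means were 14.8 ± 1.29 and 18.4 ± 0.547 CPM (SD, n = 4 each), and the log2 fold change was 0.31 (SE 0.0808, edgeR adjusted p = 0.722).

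The groups did not overlap in 4 members, all higher in Opa1+/- mice, which is 5.19% against 1.98% of all genes tested. Besides *Mrpl55* these were *Mrps35*, *Mrpl23* and *Mrpl53*. No member was lower without overlap, against 2.33% of all genes. Of the 15023 protein-coding genes tested, 195 (1.3%) were higher and 402 lower without overlap.

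*Mrps35* (ENSMUSG00000040112.9, chromosome 6 from 147042764 to 147073991) codes for a small subunit protein without a bacterial relative. Its level was 22.0, 23.1, 23.5 and 22.1 CPM in WT mice and 25.4, 26.0, 26.2 and 28.3 CPM in Opa1+/- mice, in the same order of animals. The fitted difference was 0.22 on the log2 scale (SE 0.0601, edgeR adjusted p = 0.722). Both groups were narrow, with the highest WT value below the lowest Opa1+/- value.

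*Mrpl23* (ENSMUSG00000037772.13, chromosome 7 from 142532686 to 142540747) codes for a protein at the exit of the peptide tunnel. The 4 WT mice had 26.4, 27.0, 26.4 and 26.5 CPM, and the Opa1+/- mice had 29.98, 28.7, 29.02 and 30.6 CPM. On the log2 scale the difference was 0.15 (SE 0.0508, edgeR adjusted p = 0.722). A pseudogene entry, *Mrpl23-ps1*, held 307 to 374 counts per mouse beside 441 to 573 for *Mrpl23* itself, so reads could have been divided between both entries.

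*Mrpl53* (ENSMUSG00000030037.9, chromosome 6 from 83109040 to 83109939), a mitochondria-specific protein near the stalk, had 15.5, 15.4, 15.9 and 15.1 CPM in WT mice and 16.4, 16.6, 16.6 and 16.7 CPM in the Opa1+/- group. The gap between groups was narrow, with a fitted difference of 0.10 on the log2 scale (SE 0.0631, edgeR adjusted p = 0.785), which became -0.013 with an adjustment for length and GC content. Its exons share 695 bases with *Gm42688* on the same strand, so its counts are uncertain.

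**Figure D3:**
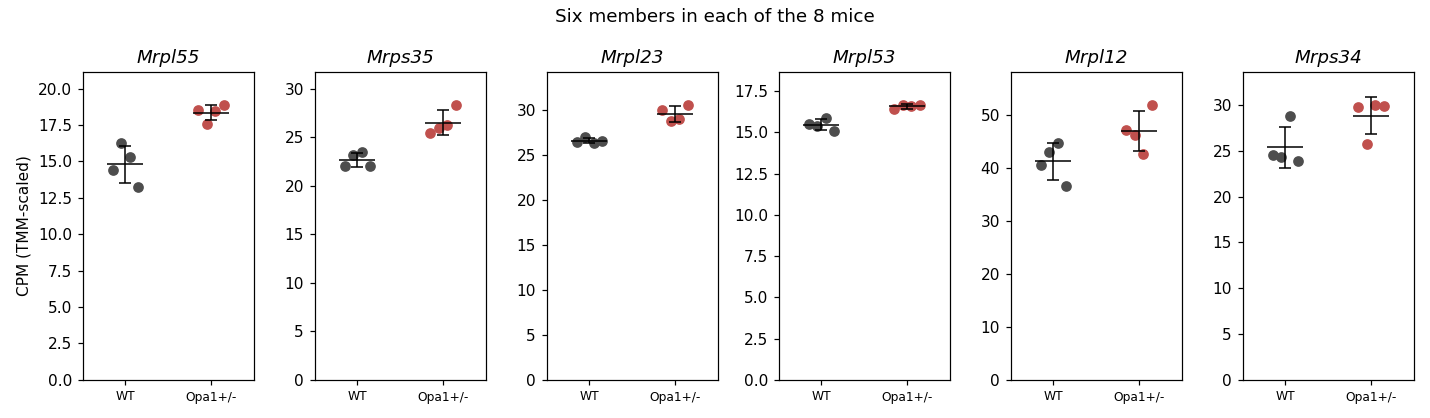
TMM-scaled CPM of *Mrpl55*, *Mrps35*, *Mrpl23*, *Mrpl53*, *Mrpl12* and *Mrps34* in each of the 4 WT (grey) and 4 Opa1+/- (red) mice, with the mean and SD in black and axes from 0. The groups are apart in the first 4 panels, with *Mrpl55* at 13.2 to 16.3 against 17.6 to 18.9 CPM, and overlap in the last 2.

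In the other 2 members with an unadjusted p under 0.05 the groups overlapped. *Mrpl12*, the stalk protein, had 40.5, 43.1, 44.7 and 36.6 CPM in WT mice and 47.1, 46.1, 42.7 and 51.9 CPM in the Opa1+/- group (log2 fold change 0.19, SE 0.0805, edgeR adjusted p = 0.732). *Mrps34*, a small subunit protein needed for the stability of that subunit, had 24.5, 24.4, 28.7 and 23.8 CPM in WT mice and 29.7, 25.8, 30.01 and 29.9 CPM in the Opa1+/- group, with a log2 fold change of 0.19 (SE 0.0813, edgeR adjusted p = 0.732). WT_6 lay within the range of the Opa1+/- mice for *Mrps34*, and Het_484 within the range of WT for *Mrpl12*. With the adjustment for length and GC content both were at 0.10, and without WT_8 and Het_491 *Mrpl12* was at 0.084 and *Mrps34* at 0.14, and under neither setting was the unadjusted p under 0.05. Exons of *Mrps34* overlap those of *Nme3* on the same and *Mapk8ip3* on the opposite strand.

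To complete the 5 genes of each subunit with the lowest p, the large subunit added *Mrpl52* of the central protuberance (log2 fold change 0.22, edgeR adjusted p = 0.741) and *Mrpl1*. *Mrpl52* was at 0.058 without Het_484 and Het_491 and at 0.12 with the adjustment for length and GC content. The small subunit added *Mrps24*, the relative of bacterial S3 (0.14, or 0.046 with that adjustment), *Mrps16*, the relative of bacterial S16 (0.19), and *Mrps36* (0.16, or 0.097 without WT_8 and 0.11 without Het_491), with adjusted p values of 0.749 to 0.758 from edgeR. Exons of *Mrps24* share 226 bases with *Urgcp* on the same strand. Pseudogene entries *Mrps36-ps1* and *Mrps36-ps2* held 87 to 143 and 113 to 174 counts per mouse, beside 571 to 771 for *Mrps36*. The counts of *Mrps24* and *Mrps36* are therefore uncertain. *Mrpl1*, of the mobile arm at the exit side of the large subunit, was the member with the lowest log2 fold change. Its WT values were 13.5, 12.7, 12.1 and 11.8 CPM and its Opa1+/- values 12, 10.7, 10.5 and 10.7 CPM, with only Het_2 inside the WT range (log2 fold change -0.19, SE 0.0866, edgeR adjusted p = 0.749). With the adjustment for length and GC content it was at -0.12.

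By place in the ribosome, fold changes above 0 were found in all 5 stalk genes (*Mrpl10*, *Mrpl11*, *Mrpl12*, *Mrpl53* and *Mrpl54*), with a median log2 fold change of 0.13 and a range from 0.10 to 0.19. With an adjustment for length and GC content *Mrpl53* was at -0.013, *Mrpl54* at 0.0085 and *Mrpl12* at 0.10. In the 6 genes of the tunnel exit (*Mrpl17*, *Mrpl22*, *Mrpl23*, *Mrpl24*, *Mrpl45* and *Mrpl47*) all 6 were above 0, with a median of 0.084. In the central protuberance 11 of 12 measured genes were above 0, with a median of 0.096. The 4 genes around the catalytic centre (*Mrpl2*, *Mrpl3*, *Mrpl4* and *Mrpl16*) had a median of 0.13, with 3 above 0. In the 4 genes at the decoding centre and mRNA path (*Mrps5*, *Mrps12*, *Mrps24* and *Mrps28*), 2 were above 0 and 2 below, with a median of 0.046. No gene of these groups passed the adjusted test.

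By origin, 27 of 30 large subunit genes with a bacterial relative were above 0 (median log2 fold change 0.10), and 15 of 18 without one (median 0.073). In the small subunit the counts were 13 of 17 (median 0.057) and 6 of 9 (median 0.020). The difference between these classes was not tested. *Mrps18a* and *Mrps30* bear small subunit symbols, but their proteins belong to the large subunit. They had log2 fold changes of 0.11 (0.056 without Het_491 and 0.17 without WT_6) and 0.0027, the latter changing sign under other scalings. Counting them with the large subunit, and leaving out *Mrps36*, gave medians of 0.094 and 0.047 for the large and the small subunit.

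Among genes in which human variants are known to affect hearing, *Mrps7*, the relative of bacterial S7, had 23.5 ± 2.60 CPM in the WT group and 26.3 ± 1.56 CPM in the heterozygous group (SD, n = 4 each, log2 fold change 0.17, or 0.098 without WT_8, adjusted p = 0.761 from edgeR). *Mrps2*, the relative of bacterial S2, had 24.7 ± 2.29 and 24.5 ± 2.16 CPM (log2 fold change -0.01, and -0.081 to 0.042 with 1 mouse left out). For *Mrpl50*, a mitochondria-specific large subunit protein, the values were 22.5 ± 1.69 and 21.7 ± 1.49 CPM (log2 fold change -0.05, and -0.093 to -0.015 with 1 mouse left out). *Dap3*, which codes for a GTP-binding protein of the small subunit and does not have an *Mrp* symbol, had 41.6 ± 1.64 and 42.9 ± 2.69 CPM (log2 fold change 0.04). In all 4 genes the groups overlapped. Of 16 genes known from human defects of oxidative phosphorylation 11 were above 0 with a median of 0.042, and 2 had an unadjusted p under 0.05 (*Mrpl12* and *Mrps34*), both higher, where 3.51% of all genes tested were higher at that p.

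Summed over each subunit, the RNA of the groups overlapped. The 48 large subunit genes summed to 1254, 1273, 1256 and 1183 CPM in WT_4, WT_5, WT_6 and WT_8 and to 1299, 1268, 1309 and 1393 CPM in Het_2, Het_7, Het_484 and Het_491. The means were 1242 ± 40.0 and 1317 ± 53.5 CPM (SD, n = 4 each), a ratio of 1.06, and Het_7 lay below WT_5. The 29 small subunit genes summed to 756.6, 764.8, 779.1 and 720.9 CPM in WT mice and to 795.9, 750.2, 785.9 and 825.2 CPM in the Opa1+/- group, with means of 755.3 ± 24.8 and 789.3 ± 30.9 CPM and a ratio of 1.05. Again Het_7 lay inside the WT range. The ratio of large to small subunit RNA was 1.64 ± 0.0235 in WT and 1.67 ± 0.0267 in Opa1+/- mice (SD, n = 4 each), with overlapping ranges of 1.61 to 1.67 and 1.63 to 1.69.

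**Figure D4:**
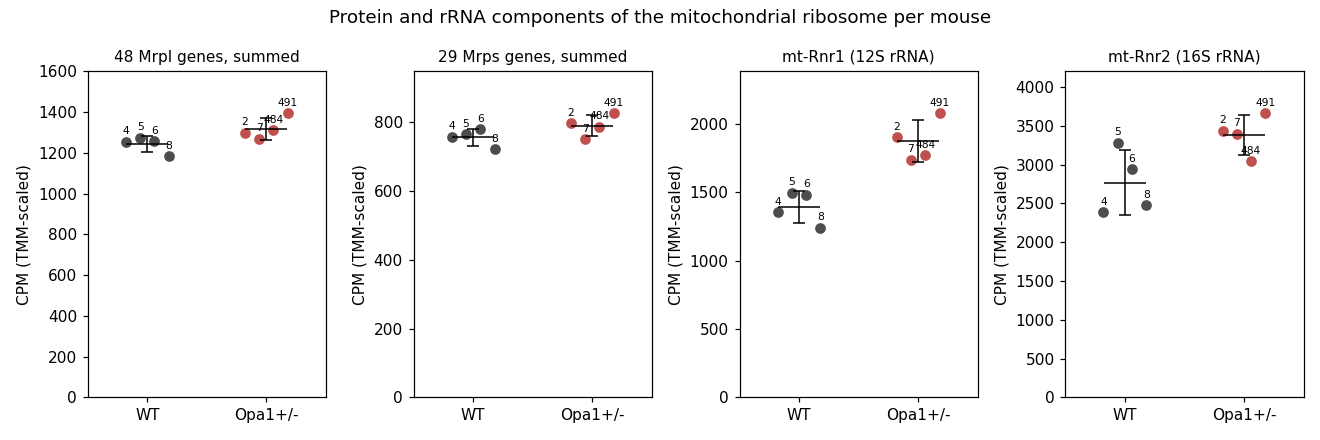
TMM-scaled CPM per mouse, with animal numbers, for the 48 *Mrpl* genes summed, the 29 *Mrps* genes summed, *mt-Rnr1* and *mt-Rnr2*, with the mean and SD of 4 WT (grey) and 4 Opa1+/- (red) mice and axes from 0. The groups are apart only for *mt-Rnr1* (1239 to 1493 against 1738 to 2075 CPM), and WT_8 and Het_491 are the lowest and the highest in the first 3 panels.

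The rRNA partners, given for context, differed by more than the summed protein genes. Among single members *Mrpl55* had a higher log2 fold change (0.31) than *mt-Rnr2*. These differences were not tested against each other. *mt-Rnr1* was at 1352, 1493, 1479 and 1239 CPM in WT mice and 1899, 1738, 1769 and 2075 CPM in the Opa1+/- group, without overlap (log2 fold change 0.43, SE 0.0853, edgeR adjusted p = 0.571 and 9.56e-04 from DESeq2). *mt-Rnr2* was at 2384, 3283, 2939 and 2476 CPM and 3434, 3396, 3046 and 3662 CPM, with overlap (log2 fold change 0.29, SE 0.110, edgeR adjusted p = 0.722). Per unit of RNA for small subunit proteins, *mt-Rnr1* stood at 1.84 ± 0.106 in WT and 2.37 ± 0.113 in Opa1+/- mice, and the groups did not overlap on this ratio (1.72 to 1.95 against 2.25 to 2.52). For *mt-Rnr2* over the large subunit genes the ratio was 2.23 ± 0.295 and 2.57 ± 0.163 (SD, n = 4 each), with overlap. The share of counts on all genes of the mitochondrial genome overlapped between the groups, at 11.7% to 16.01% in WT and 13.4% to 16.1% in Opa1+/- mice.

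The shift in the protein genes was smaller when either of 2 mice was left out. Het_491 had the highest level in 34 of the 77 genes (44.2%, against 17.2% of all genes tested), and WT_8 the lowest in 30 (39%, against 11% of all genes). Without Het_491, 56 of 77 genes were above 0, with medians of 0.064 and 0.018 for the large and the small subunit. Without Het_484 and Het_491, the only mice with 3-digit numbers, the values were 53 genes, 0.057 and 0.028. Without WT_8 they were 59 genes, 0.069 and 0.021, and without both WT_8 and Het_491 53 genes, 0.045 and 0.014. The erythroid markers moved with this pair, being lowest in WT_8 (7709 CPM) and highest in Het_491 (24920 CPM), and all 5 had a log2 fold change above 0 with a median of 0.58. WT_4, at 21260 CPM of erythroid markers, had 2011 CPM of the 77 genes, inside the range of the other WT mice (1904 to 2038 CPM). All 4 Schwann cell markers were above 0 as well (median 0.20), with sums of 2964 CPM in WT_8, the lowest, to 4084 CPM in WT and of 3573 to 4884 CPM in Opa1+/- mice, the highest in Het_2. None of the 5 skeletal muscle markers was above 0 (median -0.80), and Het_491 had their lowest sum, 12.4 CPM. None of the 3 bone markers was above 0 (median -0.062), with their highest WT sum in WT_8 (1115 CPM) and the lowest sum of all in Het_491 (741.5 CPM). In the other lists, 1 of 5 stria vascularis markers (median -0.13), 1 of 4 supporting cell and fibrocyte markers (median -0.11), 3 of 8 hair cell markers (median -0.058), 3 of 6 neuron markers (median 0.014) and 3 of 7 neutrophil markers (median -0.021) were above 0. Beyond these values, the part of these cell types in the shift was not tested.

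Fold changes also differed by transcript length and base composition, in these genes and in all protein-coding genes. By the longest annotated transcript, the 17 members under 1000 bases had a median log2 fold change of 0.10 with 16 above 0, and the 664 protein-coding genes of that length a median of 0.091 with 70.8% above 0. For 24 members of 1000 to below 2000 bases the median was 0.089, beside 0.049 for 2431 protein-coding genes. For 25 members of 2000 to below 4000 bases it was 0.065, against -0.0039 for 6201 genes. The 11 members of 4000 bases or more had a median of 0.046 against -0.055 for 5727 genes. The medians were closest in the shortest class and farther apart in the longer ones, and 8 of the 11 longest members were above 0 against 30.7% of protein-coding genes.

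**Figure D5:**
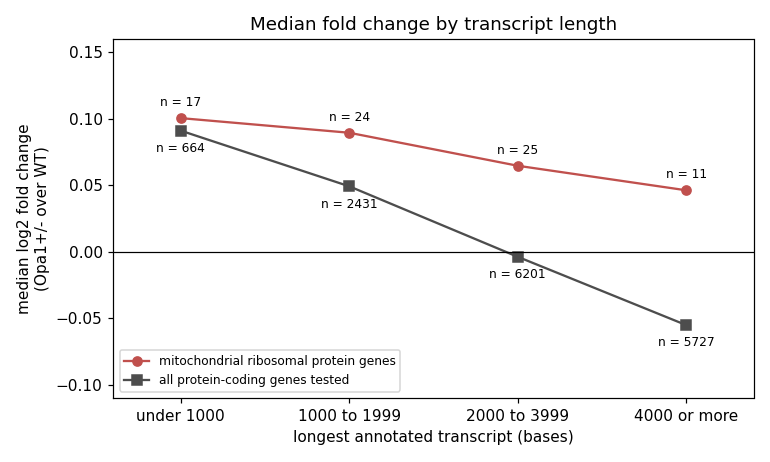
Median log2 fold change (Opa1+/- over WT) by length of the longest annotated transcript, for the 77 mitochondrial ribosomal protein genes (red circles) and for all protein-coding genes tested (grey squares), with the number of genes beside each point. Both fall with length, from 0.10 to 0.046 in the members and from 0.091 to -0.055 in all protein-coding genes.

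By GC content of the transcript, the members had medians of 0.050 in 20 genes under 45% GC, 0.034 in 21 genes from 45% to 50%, 0.088 in 21 genes from 50% to 55% and 0.14 in 15 genes over 55%. The medians of all protein-coding genes in the same order were -0.087, -0.038, 0.014 and 0.052, so the members were lowest in the class from 45% to 50%, unlike the protein-coding genes. Each library was also adjusted for its own trend on length and GC content, an alternative chosen after the data were seen. The trend was fitted and applied in protein-coding genes only. Above 0 were then 53 of the 77 genes, against 47.9% of protein-coding genes and 51.9% of all genes tested. The medians were then 0.050 for the large and 0.035 for the small subunit, and no member passed the adjusted test. The cause of the trend was not tested.

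Between mice of one genotype the genes varied little. The biological coefficient of variation from edgeR, the part of the spread beyond counting error, had a median of 9.32% over the 77 genes and ran from 6.89% for *Mrpl23* to 16.2% for *Mrps12*. It was 12.6% over all genes tested and 10.4% over the 10591 genes within the same range of levels. The 33 genes that face a neighbour had a median log2 fold change of 0.065 and the other 44 of 0.084.

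Other genes of mitochondrial translation were followed by lists. Of 5 ribosomal proteins without an *Mrp* symbol, all 5 were above 0 with a median log2 fold change of 0.044, and 0 passed the adjusted test. In *Aurkaip1*, a small subunit protein, the groups did not overlap, at 72.5, 70.2, 69.96 and 69.4 CPM in WT mice and 80.2, 73.5, 83.4 and 81.0 CPM in the Opa1+/- group (log2 fold change 0.17, SE 0.0555, edgeR adjusted p = 0.722). *Chchd1*, another of the small subunit, had a log2 fold change of 0.06. Of 25 measured assembly factors for the mitochondrial ribosome, 15 were above 0 and 10 below, with a median of 0.026 and 0 called. The 3 with the lowest p were *Rpusd3*, a pseudouridine synthase (log2 fold change 0.43, at 3.45 ± 0.729 and 4.66 ± 0.939 CPM, SD, n = 4 each), *Mterf4*, which recruits an rRNA methyltransferase (-0.17), and *Gtpbp10*, a GTPase of large subunit assembly (-0.19), and their groups overlapped.

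Of 15 measured translation factors and regulators, 8 were above 0, with a median of 0.017 and 0 called. *Tufm*, the elongation factor that brings tRNA to the mitochondrial ribosome, was at 36.2, 39.2, 39.5 and 38.5 CPM in WT mice and 42.3, 44.5, 45.2 and 46.8 CPM in the Opa1+/- group. The groups did not overlap, and the log2 fold change was 0.22 (SE 0.0543, edgeR adjusted p = 0.722). *Guf1*, a GTPase related to bacterial LepA, had 28.8, 32.7, 31.6 and 31.2 CPM in WT mice and 29.6, 26.8, 25.6 and 25.02 CPM in the Opa1+/- group, with overlap through Het_2 (log2 fold change -0.22, SE 0.0705, edgeR adjusted p = 0.722). *Slirp*, which stabilizes mitochondrial mRNA with LRPPRC, had a log2 fold change of 0.14. No list of the translation machinery held a gene past the adjusted threshold.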

How the data were processed

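RNA seq counts of 4 WT and 4 Opa1+/- cochlear samples were used. The authors extracted RNA with TRI Reagent or, per the labels, an RNeasy kit (which mouse had which is not given in the sources used here), made CORALL libraries, sequenced paired reads, used molecular identifiers, and mapped with STAR to GRCm38. They deposited whole-number raw counts per gene symbol and mouse. The study's methods name the CORALL Data Analysis Pipeline for this. The counting program within it and its use of strand are not given in the sources used here. Of 47643 entries, 15 were left out because a number stands where the gene symbol should be (0.112% to 0.124% of counts). Entries with -ps (5) were no members, and the protein now called MRPL58 is listed under an older symbol and was not a member either.

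Library sizes were scaled by TMM (factors 0.948 to 1.06). Genes with a mean DESeq2-normalized count over 10 (19366) were tested with edgeR 4.0.16 by the quasi-likelihood test, with Benjamini-Hochberg adjustment over all of them and a threshold of 0.05. SE is the size of the log2 fold change over the square root of F. The tests were checked on simulated counts, in which the changes were larger than any found in the members. This check does not cover changes as small as theirs. Alternatives were DESeq2 1.42.0, limma 3.58.1 (voom), sva 3.50.0, other scalings and filters, and mice left out. Scripts ran in R 4.3.3 and Python 3.11.15. Counts limit precision, and separate mice were taken as replicates. The labels give no litters.

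The members, lists and alternatives were chosen with earlier results of these data known. Genes named with values are *Opa1* and the 2 rRNAs, any member past the threshold, the 5 of each subunit with the lowest p, the 3 with the highest and the 3 with the lowest level per kb, the hearing genes, 3 misnamed symbols, members without overlap, and the 3 with the lowest p of each pathway list. *Mrpl15*, *Mrps25*, *Mrps12* and the neighbours and promoter matches were named after their values were seen.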

Additional observations from a re-analysis of the deposited data

Results flagged for a closer look

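In groups of 4 mice, a value was picked out where its gap to the nearest other mouse, divided by the range of the group, exceeded Dixon's 95% critical value. Of 64 groups examined, 7 were picked out, and chance gives about 1 in 20. Het_491 was apart for *Mrpl41* (36.8 CPM against 30.5 to 31.2 CPM in the other 3) and for *Mrps2* (27.7 CPM against 23.0 to 23.7). WT_6 was apart for *Mrps34* (28.7 CPM against 23.8 to 24.5), for *Mrps21* (49.5 CPM against 45.6 to 46.0) and for *Mrps18a* (30.8 CPM against 25.5 to 26.3). Het_7 was apart for *Mrps34* (25.8 CPM against 29.7 to 30.01), and Het_2 for *Mrpl1* (12 CPM against 10.5 to 10.7).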

How the results depend on the processing

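No member passed the adjusted test under any of the 20 settings run. The number with an unadjusted p under 0.05 was 5, and it was 3 with DESeq2, 10 with limma voom, 3 without Het_484 and Het_491, 2 without WT_8 and Het_491, and 3 to 8 with 1 mouse left out (3 without WT_8 or Het_491, 8 without WT_4, WT_6 or Het_7). Members above 0 numbered 53 to 66 over all settings. The median log2 fold change was 0.045 to 0.11 for the large and 0.014 to 0.078 for the small subunit. Scaling by total counts gave 55 members above 0, with a median over all genes of -0.028. The ratio of large to small subunit RNA, Opa1+/- over WT, became 1.04 among members that share no exon base. *mt-Rnr1* passed with DESeq2 only (0.42). *Opa1* kept its direction (-0.90 to -0.83 with 1 mouse left out), but was no longer past the threshold without Het_2 (-0.85, edgeR adjusted p = 0.0704), without Het_484 and Het_491 (-0.86) and without WT_8 and Het_491 (-0.89).

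Some members near 0 changed sign. *Mrps30* was at -0.0032 with DESeq2 size factors, -0.027 with total counts, -0.00096 with DESeq2, -0.020 with voom and -0.0012 without the count minimum. With total counts *Mrpl33* was at -0.0050 and *Mrps10* at -0.0093. Without Het_484 and Het_491, *Mrpl41* was at -0.022, *Mrpl33* at -0.054, *Mrps21* at -0.014, *Mrps6* at -0.044 and *Mrps30* at -0.011. Without WT_8 and Het_491, *Mrpl41* was at -0.030, *Mrpl33* at -0.036 and *Mrps30* at -0.038. With the length and GC adjustment *Mrpl41* was at -0.047, *Mrps21* at -0.062, *Mrps6* at -0.018 and *Mrpl53* at -0.013. With 1 mouse left out the ranges were -0.017 to 0.084 for *Mrpl41*, -0.021 to 0.065 for *Mrpl33*, -0.0075 to 0.13 for *Mrps6*, -0.035 to 0.032 for *Mrps30*, -0.025 to 0.058 for *Mrps10* and -0.081 to 0.042 for *Mrps2*. Of 23 named members, 4 (*Mrpl55*, *Mrps35*, *Mrpl23* and *Mrps16*) moved by less than 1.5 times under every setting, and 19 moved by more under at least 1. Over all settings, *Mrpl12* ran from 0.084 to 0.23, *Mrps34* from 0.10 to 0.25, *Mrpl52* from 0.058 to 0.28, *Mrpl54* from 0.0085 to 0.21, *Mrps24* from 0.046 to 0.18, *Mrps36* from 0.047 to 0.21, *Mrps7* from 0.083 to 0.23, *Mrps18a* from 0.046 to 0.17, *Mrpl1* from -0.23 to -0.12, *Mrpl32* from -0.23 to -0.038 and *Mrpl50* from -0.13 to -0.015. The causes were not tested. The length and GC adjustment, the setting without WT_8 and Het_491, the grouping by structure and the members sharing no exon base were chosen after seeing the data. No paired analysis was possible because the labels tie no mouse of one group to a mouse of the other, by litter or by number.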
